A study of Homo sapiens with 6 samples.

Results

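Metalloproteases that act at or near the cell surface, and the tissue inhibitors that bind them, were examined in Jurkat cells after a short stay in collagen. The genes were listed by name, without use of their measured values in the rule: the ADAM genes ADAM8, ADAM9, ADAM10, ADAM15, ADAM17 and ADAM19, the matrix metalloprotease genes MMP9 and MMP14, and the inhibitor genes TIMP1 and TIMP2. Of these 10 genes 9 had a probe set paired with their symbol, among 17687 genes in all, and each of the 9 had 1 probe set. TIMP2 was not analysed here. The ADAM proteins and MMP14 are anchored in the membrane, while MMP9 and the TIMP proteins are secreted, so the list is one of pericellular rather than strictly cell-surface proteins.

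Jurkat is an established cell line from a human T cell leukaemia (T-ALL), and both groups were of this line without further treatment, grown in RPMI with 10% FBS at 37 °C and 5% CO2. On 3 arrays RNA came from cells kept for 3 h in suspension, and on 3 from cells mixed into bovine type I collagen at 1.7 mg/mL, which set for 1 h before medium was added for 2 h; these are called 3D. The labels number biological replicates 1 to 3 in each group without saying what separated them, so p-values measure the spread between these samples, which may be technical. Values are the deposited log2 expression per probe set; array medians lay between 5.55 and 5.64, and the number of arrays limits the precision. The 13 T cell markers measured had means over the 6 arrays from 6.45 to 11.74, against a median of 4.07 for 34 markers of other cells (B, NK, myeloid, erythroid, stromal and endothelial or epithelial). The mean of the T cell markers on an array was 9.16 to 9.30 in suspension and 8.94 to 9.26 in 3D, and that of the 8 myeloid markers was 3.84 to 3.97 and 3.81 to 3.998. In such bulk RNA, fewer cells of a kind and less RNA per cell cannot be told apart.

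ADAM proteins with a protease site are zinc-dependent enzymes that cut the outer parts of other membrane proteins, which releases ligands and receptors and is called shedding. Matrix metalloproteases cut matrix proteins, collagen among them, and TIMP proteins block enzymes of both families by binding the active site. In T cells ADAM10 makes the cut in NOTCH receptors that precedes gamma-secretase, ADAM17 releases tumour necrosis factor, and migrating T cells can use matrix metalloproteases or pass through pores of a gel without them. Much of this activity is set after transcription, by removal of the prodomain, partner proteins and inhibitors, so RNA levels do not measure it.

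The bases upstream of the start of ADAM8, ADAM15 and ADAM17 are shown because these genes had the smallest p-values of the list, ADAM8 and ADAM15 on the lower side in 3D and ADAM17 on the higher side. The 3 sequences are the 250 bases before the RefSeq start, 5′ to 3′ on the gene's strand, from RefSeq on GRCh38.p14: chr10:133276869-133277118 (minus strand), chr1:155051066-155051315 (plus strand) and chr2:9555831-9556080 (minus strand). Capitals mark the GC box letters GGGCGG on either strand and, in ADAM17, the ETS core letters CCGGAAG on the reverse strand.
ADAM8: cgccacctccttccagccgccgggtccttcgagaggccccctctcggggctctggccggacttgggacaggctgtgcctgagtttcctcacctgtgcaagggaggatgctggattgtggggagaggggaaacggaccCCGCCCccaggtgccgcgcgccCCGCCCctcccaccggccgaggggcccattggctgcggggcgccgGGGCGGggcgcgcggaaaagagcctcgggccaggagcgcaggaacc
ADAM15: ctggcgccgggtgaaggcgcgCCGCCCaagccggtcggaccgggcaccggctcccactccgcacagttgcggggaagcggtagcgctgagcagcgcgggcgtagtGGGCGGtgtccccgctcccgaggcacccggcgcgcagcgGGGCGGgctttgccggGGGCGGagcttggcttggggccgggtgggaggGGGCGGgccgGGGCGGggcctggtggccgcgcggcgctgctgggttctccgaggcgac
ADAM17: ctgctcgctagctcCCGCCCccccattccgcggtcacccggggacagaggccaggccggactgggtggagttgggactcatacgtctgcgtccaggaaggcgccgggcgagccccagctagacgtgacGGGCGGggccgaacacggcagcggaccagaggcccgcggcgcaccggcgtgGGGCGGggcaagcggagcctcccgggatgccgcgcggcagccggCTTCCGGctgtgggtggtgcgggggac
The windows held 3, 6 and 3 GC boxes in ADAM8, ADAM15 and ADAM17, and 42.6% of 35116 such windows of RefSeq genes held at least 1. The ETS core was found in ADAM17 and in 8.52% of all windows. None of the 3 held the AP-1 letters TGANTCA (6.57% of all windows), the E-box CACGTG (6.34%) or TATAAA (10.7%), all searched on both strands. They held 23, 36 and 31 CpG pairs, against a median of 11 over all windows. The ADAM15 window also overlaps the RefSeq span of DCST1-AS1, by its symbol a gene antisense to DCST1. The lower genes and the higher gene thus had upstream windows of a like GC-rich kind, and a match of letters is a description, not a bound site. Windows were found for 7 of the 10 genes.

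The comparison of 3D with suspension asked whether 3 h in collagen went with other levels of these transcripts. ADAM8 and ADAM15 were measured lower in 3D by 1.48-fold and 1.35-fold, and ADAM17 higher by 1.27-fold, each without overlap between the groups. ADAM9, ADAM10, MMP9, MMP14 and TIMP1 overlapped. No gene of the list passed the test over all genes (limma, Benjamini-Hochberg adjusted p from 0.380 to 0.995), and 0.0% of the 17687 genes did. At an unadjusted p under 0.05, 2 of the 9 genes were lower and 0 higher (limma), where 3.97% of all genes were lower and 5.9% higher. The groups did not overlap for 3 genes on the lower side and 1 on the higher side, against 8.03% and 8.28% of all genes. The median log2 difference of the 9 genes was -0.01, against -0.02 over all genes.

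**Figure D1:**
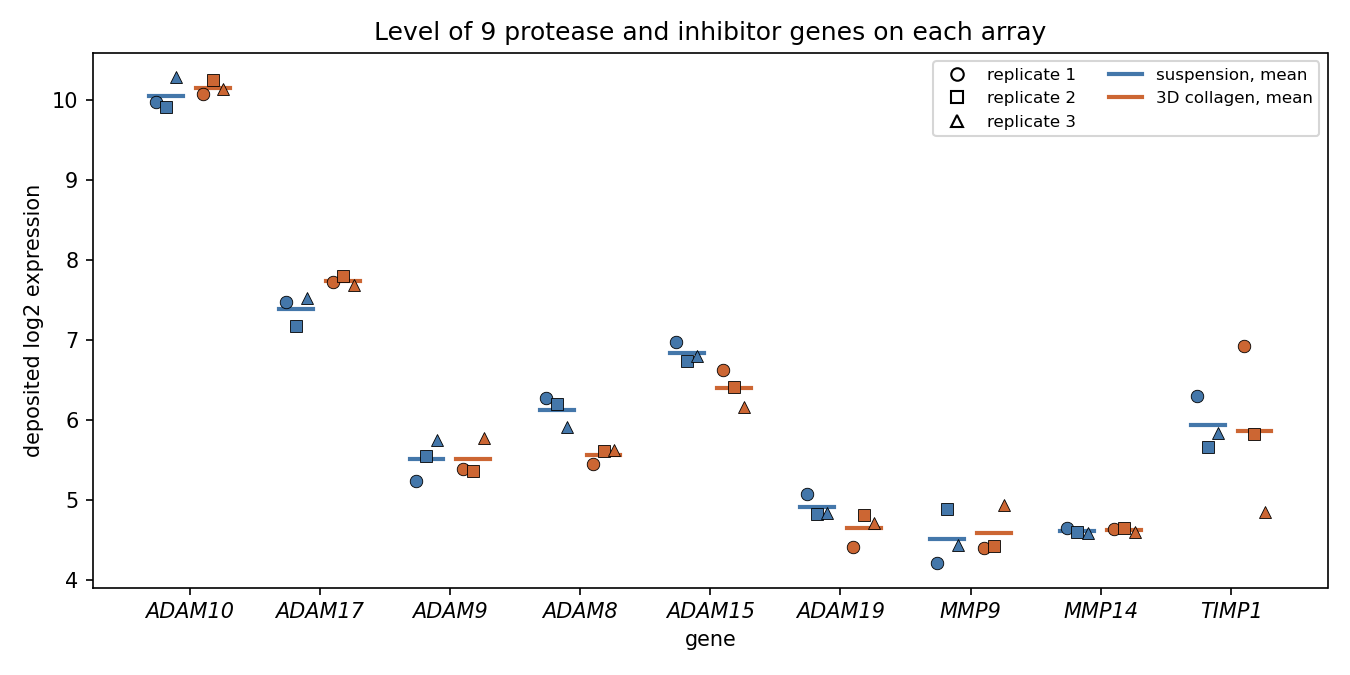
Deposited log2 expression (y axis) of 9 genes (x axis) on each array, with suspension in blue, 3D in orange, the replicate number as the marker and a line at each mean. ADAM8 and ADAM15 lie lower and ADAM17 higher in 3D on every array, MMP14 is flat, and TIMP1 runs from 4.85 to 6.92 in 3D; brightness of different probe sets does not rank the amounts of different transcripts.

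Among the sheddases, ADAM10 measured 9.97, 9.91 and 10.28 on the suspension arrays and 10.07, 10.25 and 10.14 on the 3D arrays, given here and below in the order of replicates 1, 2 and 3. The groups overlapped, with suspension replicate 3 the highest of all 6 arrays. The log2 difference (3D minus suspension, as everywhere here) was 0.10 ± 0.16 (SE), with a 95% interval from -0.27 to 0.46 (limma, adjusted p 0.863). The ADAM10 probe set was brighter than that of 97.3% of all genes.

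ADAM17, the main enzyme that releases tumour necrosis factor, measured 7.47, 7.17 and 7.52 in suspension and 7.72, 7.79 and 7.68 in 3D. All 3 values in 3D lay above all 3 in suspension, and the 3D arrays spread over 0.11. The means were 7.39 ± 0.19 (SD, n = 3) and 7.73 ± 0.06 (SD, n = 3), a difference of 0.34 ± 0.16 (SE), with an interval from -0.01 to 0.70. The gene did not pass (limma, unadjusted p 0.0569, adjusted p 0.517). Blocking on the replicate number gave an interval from 0.00523 to 0.684 (limma, unadjusted p 0.0471, adjusted p 0.282). The value of ADAM17 was higher in 3D in all 3 replicate pairs, by 0.25, 0.62 and 0.16.

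ADAM10 and ADAM17 share many substrates, so their differences were set against each other within each array. The ADAM10 value less the ADAM17 value had differences of -0.15, -0.29 and -0.30 in the 3 pairs, with a mean of -0.25. An exact two-sided permutation test gave p = 0.1, the smallest that 3 against 3 arrays allow, and 0.3 after Benjamini-Hochberg adjustment over the 3 contrasts run.

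ADAM9, a widely expressed ADAM with many substrates, measured 5.23, 5.55 and 5.75 in suspension and 5.38, 5.36 and 5.77 in 3D. In both groups replicate 3 was the highest array. The difference was -0.01 ± 0.19 (SE), with an interval from -0.43 to 0.41 (limma, adjusted p 0.995), and its sign differed between pairs.

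ADAM8, also called CD156a, is an ADAM of leukocytes that removes its own prodomain. It measured 6.27, 6.20 and 5.91 in suspension and 5.45, 5.61 and 5.61 in 3D. Every 3D array lay under every suspension array, and the nearest of them, suspension 3 and 3D 3, differed by -0.30. The means were 6.13 ± 0.19 (SD, n = 3) and 5.56 ± 0.09 (SD, n = 3). The difference, -0.57 ± 0.16 (SE) with an interval from -0.93 to -0.21, was the largest of the 9 genes. The unadjusted p of limma was 0.00523 and the adjusted p 0.380, and 1.29% of all genes had a smaller p. With any 1 array left out the difference stayed between -0.68 and -0.50, with unadjusted p of limma from 0.00396 to 0.0207.

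ADAM15, or metargidin, carries an RGD stretch in its disintegrin domain through which it can bind integrins. It measured 6.97, 6.73 and 6.80 in suspension and 6.63, 6.41 and 6.16 in 3D. The groups did not overlap, and the 3 pairs had differences of -0.34, -0.32 and -0.64. The means were 6.83 ± 0.12 (SD, n = 3) and 6.40 ± 0.24 (SD, n = 3), a difference of -0.44 ± 0.17 (SE) with an interval from -0.82 to -0.05 (limma, unadjusted p 0.0290, adjusted p 0.469). With any 1 array left out the difference stayed between -0.55 and -0.32, and the unadjusted p of limma, from 0.0142 to 0.124, was under 0.05 in 2 of 6 cases.

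The numbered replicates were taken to pair the samples, and the call for ADAM15 depended on this and on the set of genes tested. With the replicate number as a block and all genes, 0 of the 9 genes passed, and 16 genes in all, 0.0905%, did so (limma). At an unadjusted p under 0.05 with the block, ADAM8 and ADAM15 were lower, as were 7.36% of all genes, and ADAM17 was higher, as were 10.0%. The adjusted p with this block was 0.115 for ADAM8, 0.179 for ADAM15 and 0.282 for ADAM17. Among the 8342 genes whose mean level was 6 or more, fitted with this block, ADAM15 passed at an adjusted p of 0.0346 and ADAM17 did not (0.0930). In that fit 3.78% of genes passed as lower and 10.6% as higher, and 3 genes of the list were tested. ADAM8, with a mean of 5.84 over the 6 arrays, lay just under that limit and was not tested there. The ADAM15 call was lost without pair 1 (adjusted p 0.0882) and without pair 3 (0.339), and held without pair 2 (0.0258). Without pair 2 or pair 3, limma gave every gene of that fit the same spread. Those calls and adjusted p-values, here and below, therefore do not measure a gene's own spread. With all pairs, too, most of a gene's spread was borrowed from other genes (25.0 prior degrees of freedom against 2 of its own).

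ADAM19, known as meltrin beta, measured 5.07, 4.82 and 4.84 in suspension and 4.40, 4.81 and 4.71 in 3D. The groups did not overlap, but suspension 2 and 3D 2 differed by only -0.01. The difference was -0.27 ± 0.17 (SE), with an interval from -0.65 to 0.11 (limma, adjusted p 0.611), and most of it came from pair 1, at -0.67.

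**Figure D2:**
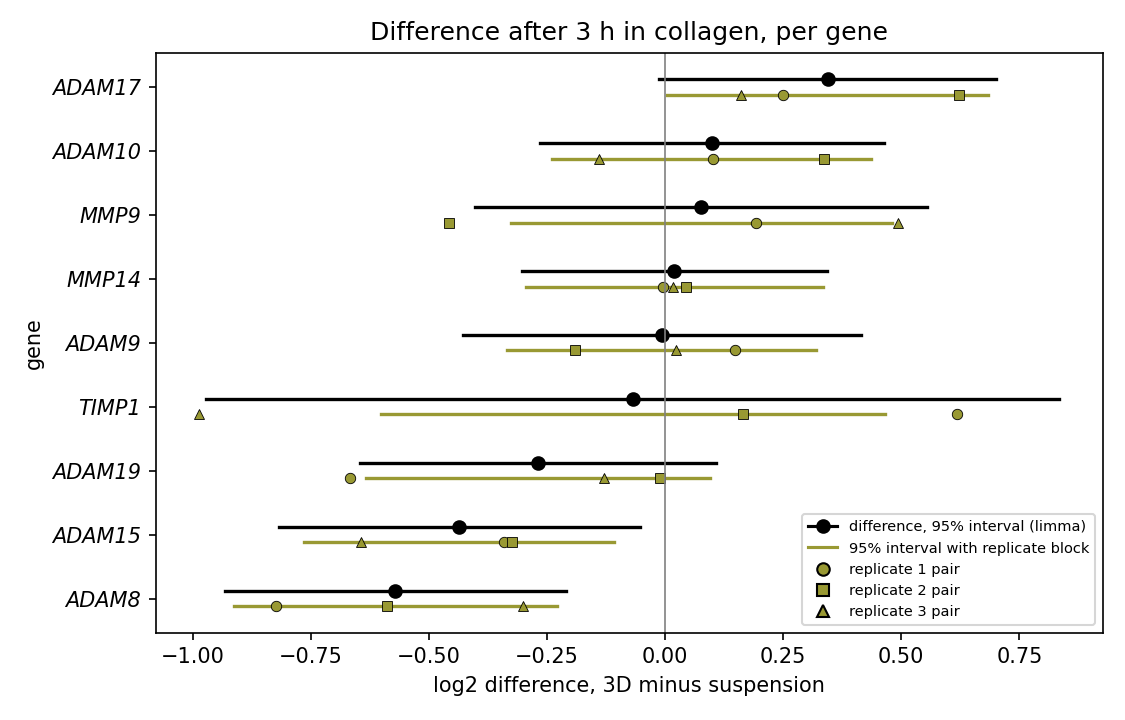
Log2 difference, 3D minus suspension (x axis), of each gene (y axis). Black points and bars are the difference and its 95% interval, olive bars are the interval with the replicate number as a block, and olive markers are the 3 replicate pairs. The black intervals of ADAM8 and ADAM15 lie below 0, that of ADAM17 starts at -0.01, and the pairs of TIMP1 run from -0.99 to 0.62.

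The matrix metalloproteases showed no difference that these arrays could separate from the spread. MMP14, the membrane-anchored collagenase that also activates other metalloproteases, measured 4.64, 4.60 and 4.58 in suspension and 4.64, 4.64 and 4.60 in 3D. It was among the least variable genes measured: 0.0452% of genes had a smaller spread within groups. Its difference was 0.02 ± 0.15 (SE), where the error comes from limma's shared spread, with an interval from -0.30 to 0.34 (adjusted p 0.976). MMP9, a secreted gelatinase, measured 4.20, 4.88 and 4.44 in suspension and 4.40, 4.43 and 4.93 in 3D. The groups overlapped and the pairs differed in sign, for a difference of 0.08 ± 0.22 (SE) with an interval from -0.40 to 0.56 (limma, adjusted p 0.922).

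Both metalloprotease levels lay near the median of 4.07 of the 34 markers of other cell types, some of which Jurkat cells may express. The 90th percentile of those markers was 6.62; ADAM10 and ADAM17 lay above it, ADAM15 lay at it and the other 6 genes lay under it. Since no measured background was used, a level as low as those of MMP9, MMP14 and ADAM19 cannot be told from no expression, and a flat value there does not show a stable transcript.

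TIMP1, a secreted inhibitor that binds MMP9 and can inhibit ADAM10, varied more within the groups than 99.5% of genes. It measured 6.30, 5.65 and 5.84 in suspension and 6.92, 5.82 and 4.85 in 3D. The 3D arrays were both the highest and the lowest of the 6, and spanned 2.07, against 0.65 in suspension. The group means were 5.93 ± 0.33 (SD, n = 3) and 5.86 ± 1.04 (SD, n = 3), and the difference of -0.07 ± 0.41 (SE) had an interval from -0.97 to 0.83 (limma, adjusted p 0.969). Single arrays decided its sign: without 3D replicate 3 the difference was 0.44, without suspension replicate 1 it was 0.12, and without 3D replicate 1 it was -0.60.

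Proteases were also set against inhibitors within each array. MMP9 less TIMP1 had a difference of 0.14 (exact two-sided permutation test, p = 0.9, adjusted p 0.9), which was -0.54 without 3D replicate 3 and -0.19 without suspension replicate 1. ADAM17 less TIMP3, the TIMP known to inhibit it, had a difference of 0.21 (exact two-sided permutation test, p = 0.7, adjusted p 0.9). It was 0.0242 without 3D replicate 2 and 0.42 without 3D replicate 1.

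Over all genes the difference varied with gene span. The 9 genes as a set did not line up in that order, but ADAM8, ADAM15 and ADAM17 each differed in the direction of their quintile's median. So did ADAM10 and TIMP1, while ADAM9, ADAM19, MMP9 and MMP14 differed in the other direction. With genes split into quintiles of span, the median difference was -0.09 in the shortest quintile and 0.06 in the longest. The shortest of the 9, TIMP1 at 4.35 kb, MMP9 at 7.65 kb and MMP14 at 11.2 kb, had differences of -0.07, 0.08 and 0.02. ADAM8 and ADAM15 span 14.4 and 11.5 kb in RefSeq, in a quintile with a median of -0.07, and have 62 and 53 genes within 500 kb. ADAM17 spans 67.3 kb, in a quintile with a median of 0.05, and ADAM10 160.9 kb. After removal of the trend of each array on span and on neighbours, the difference was -0.49 for ADAM8, -0.37 for ADAM15 and 0.30 for ADAM17 (limma, unadjusted p 0.0122, 0.0490 and 0.0983). ADAM19, which spans 98.5 kb, had its difference of -0.27 against a median of 0.06 in its quintile. MMP14 had the most neighbours of the list, 124, and its difference moved from 0.02 to 0.26 with the trend removed.

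**Figure D3:**
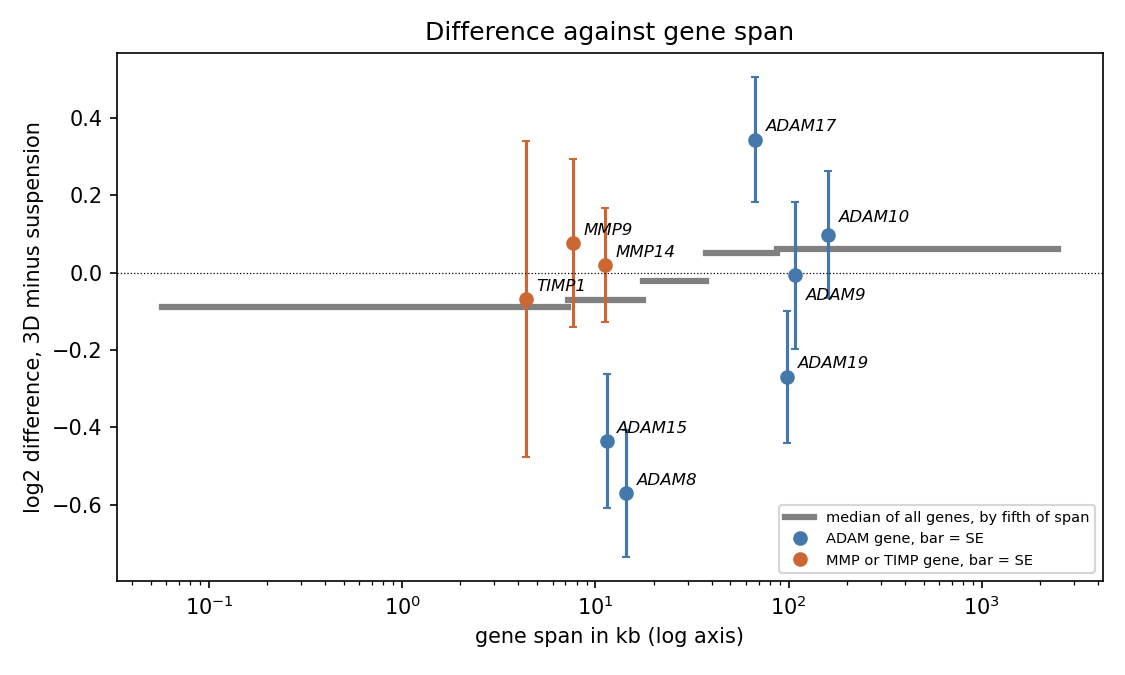
Log2 difference, 3D minus suspension (y axis), against gene span in kb (x axis, log scale), with the SE as bars, ADAM genes in blue and MMP or TIMP genes in orange. Grey lines are the median of all genes in each quintile of span, from -0.09 to 0.06; ADAM8 and ADAM15 lie below the line of their quintile and ADAM17 lies above.

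Genes that work with these proteases were taken from lists drawn up by known function. Over all genes 0 members of any list passed, with the block or without it (limma, adjusted p under 0.05). Among the proteins that escort ADAM10 and ADAM17 to the surface, 8 of 9 measured members had a lower value in 3D and 1 a higher one, with a median difference of -0.31, where 52.6% of all genes had a lower value. At an unadjusted p under 0.05, 3 of them were lower (3.97% of all genes). Of the 9 members, 3 had a mean level under 6. TSPAN15, a tetraspanin that escorts ADAM10 out of the endoplasmic reticulum, measured 6.11, 6.44 and 6.39 in suspension and 5.598, 5.96 and 5.80 in 3D. Its groups did not overlap and its pairs were alike, at -0.51, -0.49 and -0.59. The difference was -0.53 ± 0.17 (SE; limma, adjusted p 0.401, and 0.112 with the replicate block). In the fit with the block and mean levels of 6 or more TSPAN15 passed (adjusted p 0.0113), but not without pair 1 (0.0538) or pair 3 (0.107).

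TSPAN33, of the same tetraspanin group, had -0.37 ± 0.16 (SE), with lower values in all 3 pairs and no overlap. TSPAN10 had -0.70 ± 0.29, of which pair 1 gave -1.76, at a mean of 5.33, under 6. RHBDF2, the iRhom that carries ADAM17 to the surface, had -0.31 ± 0.21 with overlapping groups. The other members are given to complete the list, outside the rule for naming genes, and all had overlapping groups. TSPAN17 had -0.33 ± 0.21, RHBDF1 -0.11 ± 0.16 and FRMD8 0.15 ± 0.19. TSPAN14 had -0.04 ± 0.21 and TSPAN5, the brightest of the list, -0.02 ± 0.17, each with pairs of both signs. Thus ADAM10 had overlapping groups at a difference of 0.10, while TSPAN15 and TSPAN33 were lower without overlap and TSPAN5 and TSPAN14 were nearly flat.

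Proprotein convertases remove the prodomain that keeps many of these enzymes inactive. FURIN had a difference of -0.32 ± 0.22 (SE) and PCSK7 one of -0.30 ± 0.18. PCSK5 had 0.75 ± 0.18, with 4.69, 4.66 and 5.03 in suspension and 5.66, 5.65 and 5.32 in 3D. The PCSK5 groups did not overlap (limma, adjusted p 0.347, and 0.0886 with the replicate block), and its mean of 5.17 lay under 6.

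Of 4 other inhibitors, RECK, a membrane-anchored inhibitor of matrix metalloproteases, measured 6.04, 5.999 and 6.11 in suspension and 6.41, 6.74 and 6.31 in 3D. All 3D arrays of RECK lay above all suspension arrays, at a difference of 0.44 ± 0.17 (SE; limma, adjusted p 0.441). RECK passed with the block among genes of mean level 6 or more (adjusted p 0.0382), and without any 1 pair it did not (0.0640 to 0.221). A2M, a secreted protease trap, had -0.39 ± 0.16 (SE) at a dim mean of 3.39. TIMP3 had 0.13 ± 0.21 and TIMP4 -0.14 ± 0.16, also at low means of 4.66 and 4.70.

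Of the proteins these enzymes cut, 22 of 27 listed genes were measured, with a median difference of 0.10, 14 higher and 8 lower, where 47.4% of all genes were higher. NOTCH1, cut by ADAM10 and often mutated in T-ALL, measured 6.45, 6.26 and 5.96 in suspension and 6.06, 5.74 and 5.62 in 3D. The groups overlapped, since 3D 1 lay above suspension 3, but each pair was lower in 3D, at -0.39, -0.52 and -0.34. The difference was -0.42 ± 0.19 (SE; limma, adjusted p 0.505, and 0.183 with the replicate block). NOTCH1 passed with the block among genes of mean level 6 or more (adjusted p 0.0389), and without any 1 pair it did not (0.107 to 0.148). ALCAM, an adhesion molecule that binds CD6 on T cells, is named after its values were seen, as the other listed substrate that passed in that fit. It was higher in each pair, at 0.50, 0.30 and 0.45, with overlapping groups and a difference of 0.42 ± 0.29 (SE; limma, adjusted p 0.633, and 0.186 with the replicate block). In that fit its adjusted p was 0.0400, and it was 0.184 without pair 1, 0.0331 without pair 2 and 0.226 without pair 3. CD46, a complement regulator, had 0.31 ± 0.16 and NOTCH2 0.25 ± 0.16. The gamma-secretase genes, which act after the ADAM cut, had a median of -0.08 over 5 measured members, with APH1A at -0.32 ± 0.22, PSENEN at -0.26 ± 0.24 and APH1B at 0.20 ± 0.18.

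The remaining family members were mostly dim. Of 20 other matrix metalloprotease genes measured, 20 had a mean under 6, and the list's median difference was -0.02. MMP1, the interstitial collagenase, measured 4.93, 4.96 and 4.62 in suspension and 4.22, 4.31 and 4.30 in 3D. Its groups did not overlap, at a difference of -0.56 ± 0.16 (SE; limma, unadjusted p 0.00549, adjusted p 0.380), and its level lay near those markers of other cell types, so whether Jurkat cells express it is uncertain. MMP2 and MMP15 had -0.28 ± 0.15 and -0.37 ± 0.20. Of 6 other ADAM genes with a protease site, 5 had a mean under 6, with ADAM21 at -0.33 ± 0.18, ADAM12 at 0.30 ± 0.19 and ADAM20 at 0.14 ± 0.17.

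ADAM22, which lacks the protease site and is known as a synaptic receptor, measured 7.20, 6.99 and 7.50 in suspension and 7.998, 7.64 and 7.54 in 3D. It had a difference of 0.50 ± 0.19 (SE; limma, adjusted p 0.453) without overlap, and its pairs ran from 0.04 to 0.80. It passed with the block among genes of mean level 6 or more (adjusted p 0.0266), but not without pair 1 (0.239) or pair 2 (0.0631). In that fit 10.6% of genes passed as higher. Of 7 measured ADAM genes without the protease site, 6 had a mean under 6, and the list's median difference was 0.03.

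**Figure D4:**
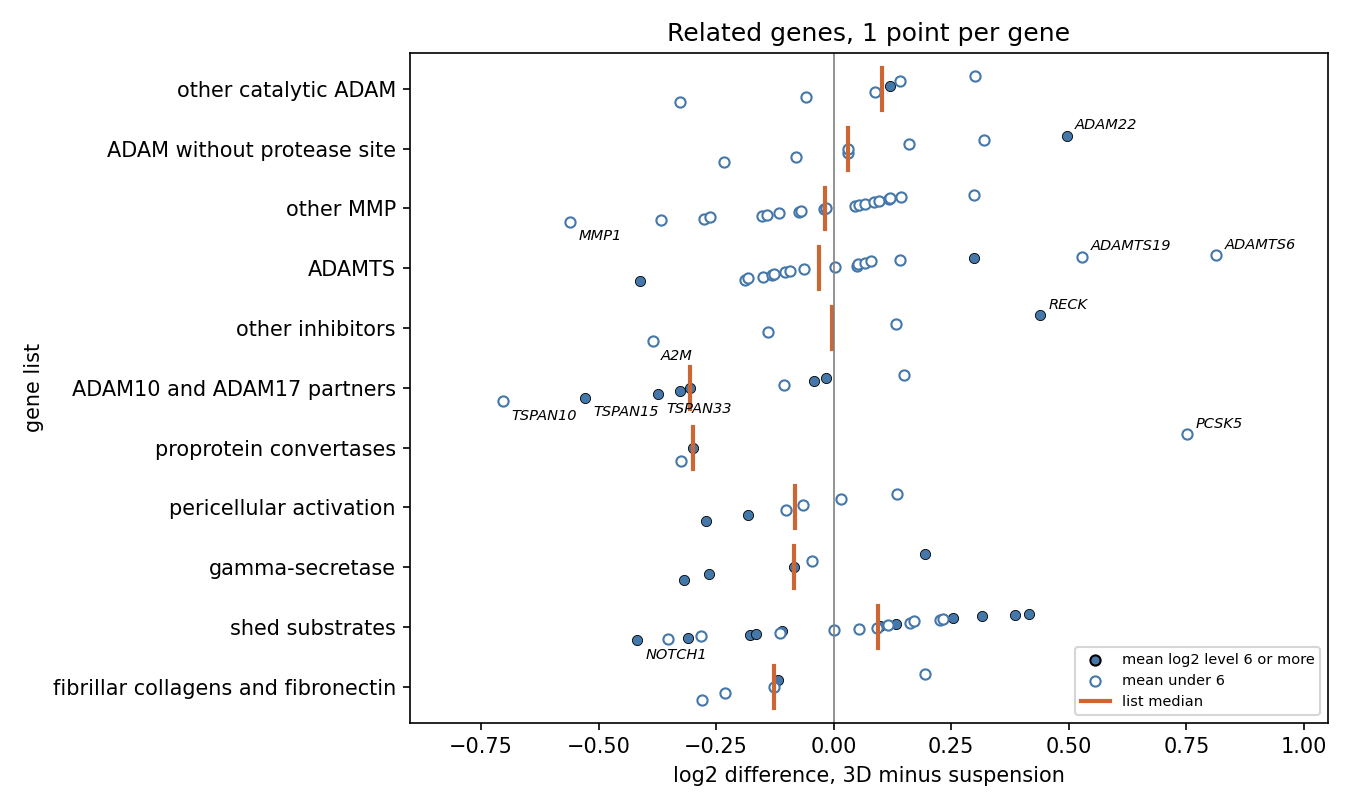
Log2 difference, 3D minus suspension (x axis), of each measured gene of 11 lists of related genes (y axis). Filled points have a mean level of 6 or more, open points a mean under 6, orange bars are list medians, and genes with an unadjusted p of limma under 0.05 are named; the escorts of ADAM10 and ADAM17 have a median of -0.31.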

How the data were processed

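Each deposited value is the log2 expression of a probe set on an array, made by the authors with RMA and the Transcriptome Analysis Console, per the submitters' processing notes; versions and probe annotation are not given in the sources used here. Labelling used a GeneChip kit for whole transcripts, per the labels' protocols. RMA puts the arrays on a common distribution, so a shift of all genes can be lost, and differences at low signal are compressed. The values were used as deposited, and 0 columns of per-sample values were left out.

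Of 21448 probe sets, 17709 had 1 gene symbol in the platform's table, 0 had several and 3739 had none. All 17709 matched RefSeq (GRCh38.p14) by gene identifier. The probe set with the highest mean stood for each of the 20 genes with several. RefSeq gave spans and upstream sequences, and coordinates are given only for the upstream windows shown, on GRCh38.p14.

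Genes were tested with lmFit and eBayes of limma 3.58.1 under R 4.3.3, without block or filter, two-sided, adjusted by Benjamini-Hochberg over 17687 genes, with a threshold of 0.05. Contrasts within an array were tested by exact permutation, and plots drawn with matplotlib 3.10.9. The alternatives were a replicate block, another quantile normalization, a mean at or above 6, a trended and robust prior, no moderation, the mean of probe sets, removal of the trend on span and neighbours, and leaving out arrays or pairs. Arrays that share a number in the titles had deviations from their group means that correlated at 0.521, 0.120 and 0.337, all over 0.1, so the numbers were taken as pairs. Suspension 2 with 3D 3 (0.230) and suspension 3 with 3D 2 (0.149) were also over 0.1. The rule thus sets only number 1 apart, the pairing of numbers 2 and 3 is weakly based, and every call made with the block rests on it. In simulated data for this comparison (17687 genes), limma found 7% of planted log2 changes of 0.5 and 84.2% of changes of 1, and with the block 31% and 99.2%. The planted changes were an equal mix of 0.5, 1, 1.5 and 2, and a run gave a mean of 13.3 false calls, or 13.2 with the block. Large changes in the mix ease the adjusted threshold, and the block runs gave both groups exactly the same replicate effect. The rates may therefore be too favourable for the real data.

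The genes and lists were chosen with earlier results of these data known. Named genes were the listed proteases and inhibitors, up to 3 genes of smallest p from each related list with NOTCH1, TIMP3 and RHBDF2, and the 3 genes nearest in pattern to each of the 3 listed genes of smallest p. A further gene of this rule is not reported here.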

Additional observations from a re-analysis of the deposited data

How the results depend on the processing

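ADAM8 and ADAM19 stayed lower in 3D under all 16 alternatives run for them, ADAM15 under all 22, and ADAM17 stayed higher under all 22. Most of these alternatives could not have changed the sign. The block, the mean limit, the prior, no moderation and the mean of probe sets return the same difference. Without overlap between the groups, leaving out an array or a pair keeps its sign. Only another quantile normalization or removal of the trend on span and neighbours could have reversed it. The adjusted p of ADAM15 ran from 0.0258 to 0.871, that of ADAM8 from 0.115 to 0.806 and that of ADAM17 from 0.0930 to 0.867 (limma). The count of the listed genes that passed was 0 in the main test and 1, ADAM15, with the replicate block and a mean at or above 6, also after another quantile normalization, and 0 to 1 when a pair was left out of that fit. At an unadjusted p under 0.05 the count was 2, rose to 3 with the replicate block over all genes and with no moderation, where ADAM17 joined ADAM8 and ADAM15, became 1 with a mean at or above 6, where ADAM8 was not tested, and ran from 1 to 2 with arrays or pairs left out.

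Over all genes 0 passed without the block (limma; 1043 were higher and 702 lower at an unadjusted p under 0.05) and 16 with it. With the block the count was 1199 at a mean at or above 6, 1075 there after quantile normalization and 22 with the span trend removed. Leaving out pairs 1, 2 and 3 in turn gave 21, 150 and 36 over all genes and 458, 1457 and 406 at a mean at or above 6. Settings that combine the block with quantile normalization, with left-out pairs at a mean at or above 6, or with the span trend were chosen after seeing the data.

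Genes of small difference changed sign. ADAM9 turned to 0.00298 after quantile normalization, and over left-out arrays it ran from -0.14 to 0.11 (0.0851 with the block and without pair 2). ADAM10 had -0.0198 with the block and without pair 2, in both sets of genes. MMP9 ran from -0.10 to 0.26 over left-out arrays and had -0.13 with the block and without pair 3. TIMP1 had 0.00541 with the span trend removed, with or without the block, ran from -0.60 to 0.44 over left-out arrays, and had 0.39 with the block and without pair 3. MMP9 less TIMP1 ran from -0.54 to 0.77 over left-out arrays. The cause was not tested. MMP14 less TIMP2 was planned and not run, as TIMP2 was not analysed here. Dim signal and 3 arrays a group limit every value.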

Other observations

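The genes whose log2 values followed each of 3 proteases most closely over the 6 arrays were named by the root mean square difference after centring each gene on its mean. For ADAM8 these were CHRM4, a muscarinic receptor gene (root mean square difference 0.03), MMP1 (0.04) and EFS, an adaptor of Src family kinases (0.06), all 3 with a mean level under 6. For ADAM15 they were ITGB2, the beta chain of the leukocyte integrins (0.04), NDUFS7, a subunit of the first respiratory complex (0.04), and RHBDD2 (0.05). ITGB2 had a difference of -0.40 ± 0.18 (SE) and an adjusted p of 0.511 (limma). For ADAM17 they were PPP1R17 (0.02), C6orf62 (0.04) and DNAAF10 (0.04). The search ran over 17687 genes on 6 arrays, so near matches are no sign of a link.

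Among ADAMTS genes, the secreted relatives of the ADAM family, 18 were measured and 16 had a mean under 6; 9 had a higher value in 3D and 9 a lower one, with a median difference of -0.03. ADAMTS6 had a difference of 0.81 ± 0.20 (SE), with 4.74, 5.33 and 5.00 in suspension and 5.63, 5.72 and 6.15 in 3D (limma, adjusted p 0.359, and 0.0796 with the replicate block). The groups did not overlap. ADAMTS19 had 0.53 ± 0.20 and ADAMTS17 0.30 ± 0.17. These 3 genes span 278.4 to 370.5 kb in RefSeq, in the fifth of longest genes, where the median difference was 0.06. ADAMTS1, named after its values were seen, was the ADAMTS gene that passed with the replicate block among genes of mean level 6 or more (limma, adjusted p 0.0488). It was lower in 3D in each pair, at -0.13, -0.44 and -0.66, with overlapping groups and a difference of -0.41 ± 0.25 (SE; limma without the block, adjusted p 0.598). The call was lost without pair 2 (adjusted p 0.0785) or pair 3 (0.420) and held without pair 1 (0.0480). Of the pericellular activation list, BSG, the matrix metalloprotease inducer basigin, had -0.27 ± 0.17, PLAU, the urokinase gene, 0.14 ± 0.15, and SERPINE2 -0.18 ± 0.23. Of the collagen and fibronectin genes, COL1A1 had -0.28 ± 0.21, COL5A2 -0.23 ± 0.22 and FN1 0.19 ± 0.20. None of these listed genes passed over all genes (limma).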
